A study of Homo sapiens with 12 samples.

Results

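The miR-17-92 cluster is a group of miRNA genes that are read as a single transcript, and its mature miRNA were followed here in extracellular vesicles (EV) shed by human cells on their way from pluripotency to heart muscle. Members were taken by name from the count table, which lists 9 mature miRNA of the cluster among 1133 miRNA, namely hsa-miR-17-5p, hsa-miR-17-3p, hsa-miR-18a-5p, hsa-miR-18a-3p, hsa-miR-19a-3p, hsa-miR-19b-3p, hsa-miR-20a-5p, hsa-miR-20a-3p and hsa-miR-92a-3p. The species prefix hsa is dropped from here on. miR-19b-3p and miR-92a-3p are also encoded by the paralogous miR-106a-363 cluster on the X chromosome and were counted as members.

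Small RNA was sequenced from 12 EV preparations of the established human induced pluripotent stem cell (hiPSC) line IMR90-4, in 4 groups of 3, which the study describes as coming from separate cultures. The study compared the miRNA carried by EV along cardiac differentiation. hiPSC-EV came from undifferentiated cells at day 0, in TeSR-E8 medium conditioned for 24 h. CPC-EV came from cardiac progenitor cells at day 6, in RPMI with B27 lacking insulin, conditioned for 72 h, after the Wnt activator CHIR99021 with activin A and ascorbic acid and then the Wnt inhibitor IWR-1. CMi-EV came from immature cardiomyocytes at day 15, grown as aggregates in RPMI with insulin-containing B27 conditioned for 48 h. CMm-EV came from cardiomyocyte aggregates at day 35, kept after day 15 in a glucose-free maturation medium with galactose, oleic acid and palmitic acid, also conditioned for 48 h. Day and medium changed with each EV group, conditioning time at 2 of the 3 steps and culture format between CPC-EV and CMi-EV. Their parts cannot be told apart where they changed together, and all samples derive from 1 cell line. The miRNA counts per library were 703415, 2511807 and 5598291 in hiPSC-EV, 1680153, 3380608 and 1539043 in CPC-EV, 2163510, 1686607 and 1364735 in CMi-EV, and 984865, 6272455 and 5072948 in CMm-EV.

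Each miRNA pairs with messenger RNA mainly through its seed, the bases near its 5′ end, so that miRNA with the same seed share most of their targets. The cluster is driven by MYC and E2F factors and is known for promoting proliferation and survival, in tumours and in the embryo, where its loss harms lung and heart development. In heart muscle it has been tied to cardiomyocyte division, and miR-92a-3p in endothelial cells to the restraint of vessel growth.

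The guide strands of the cluster are listed by shared seed, each with the paralog it is compared with, because the counts of several of them depend on very few bases. Sequences are mature miRNA from RefSeq for GRCh38.p14, in which 9 of 9 members were found, and bases 2 to 8, the seed, are in capitals. The miR-17 seed is carried by the following guides.
miR-17-5p: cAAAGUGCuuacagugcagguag
miR-20a-5p: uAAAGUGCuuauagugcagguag
miR-106a-5p: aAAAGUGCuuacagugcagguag
miR-20b-5p: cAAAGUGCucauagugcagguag
The miR-18 seed differs from it inside the capitals.
miR-18a-5p: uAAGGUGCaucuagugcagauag
miR-18b-5p: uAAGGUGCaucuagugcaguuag
The miR-19 seed is carried by a pair of members.
miR-19a-3p: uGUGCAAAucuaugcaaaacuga
miR-19b-3p: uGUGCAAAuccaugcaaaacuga
The miR-92 seed is also found in miR-363-3p of miR-106a-363, in miR-25-3p of the paralogous miR-106b-25 cluster, in miR-92b-3p and in other miRNA not shown here.
miR-92a-3p: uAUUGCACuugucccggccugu
miR-363-3p: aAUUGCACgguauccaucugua
miR-25-3p: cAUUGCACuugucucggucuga
miR-92b-3p: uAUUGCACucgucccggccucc

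Counted from 1 at the 5′ end, miR-17-5p and miR-106a-5p differ by C1A alone, and miR-18a-5p and miR-18b-5p by A20U alone. The miR-19 members differ by U11C. miR-20a-5p differs from miR-20b-5p by U1C and U10C, and from miR-17-5p, written from the latter, by C1U and C12U. miR-92a-3p differs from miR-92b-3p at 3 bases (U10C, G21C and U22C), from miR-25-3p at 4 and from miR-363-3p at 12, all outside the seed. Reads that fit several miRNA were shared out by the authors' pipeline, which leaves counts that are not whole numbers. Such values made up 9.11% of the non-zero values of all miRNA, but 83.3% of those of miR-20a-5p, 58.3% of miR-17-5p, 33.3% of miR-92a-3p and 16.7% of miR-18a-5p. The split between each of these and its nearest paralog is therefore uncertain. The other 5 members had whole counts in each library in which they were found.

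The 6 hairpins lie on the plus strand of chromosome 13 in GRCh38, in the order MIR17, MIR18A, MIR19A, MIR20A, MIR19B1 and MIR92A1. MIR17 starts at 91350605 and MIR92A1 ends at 91351391. They sit inside the host gene MIR17HG (chr13:91347686-91397592), for which GENCODE 44 lists 16 transcripts, with each hairpin in an exon of 3 and in an intron of 8 of them. The second copies of miR-19b-3p and miR-92a-3p come from MIR19B2 and MIR92A2 on the X chromosome, and their reads cannot be told from those of chromosome 13.

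The labelled cell types were checked against their marker miRNA, with levels given as CPM, the miRNA counts scaled to a common total after TMM normalization over all 12 libraries. The 5 pluripotent markers (miR-302a-3p, miR-302b-3p, miR-302c-3p, miR-302d-3p and miR-367-3p) summed to 198167, 205254 and 205732 CPM in hiPSC-EV and to 84576, 86705 and 53495 in CPC-EV. In CMi-EV they summed to 5910.1, 6281 and 3224 CPM, and in CMm-EV to 240.3, 121 and 97.2. miR-302b-3p was the most abundant of them in each library, and miR-367-3p had no count in 2 of 3 CMi-EV and in 3 of 3 CMm-EV libraries. The 6 cardiomyocyte markers (miR-1-3p, miR-133a-3p, miR-133b, miR-208a-3p, miR-208b-3p and miR-499a-5p) summed to 75.0, 53.7 and 67.8 CPM in hiPSC-EV, to 909, 950.1 and 1678 in CPC-EV, to 57160.0, 70912 and 16757 in CMi-EV, and to 30056, 46705 and 183989.6 in CMm-EV. miR-1-3p was their most abundant miRNA in each library. miR-208b-3p had no count in any hiPSC-EV or CPC-EV library, and the 6 markers were all detected in each CMm-EV library. The sums of the pluripotent list were lower in each later group without overlap. Those of the cardiomyocyte list, mostly miR-1-3p, overlapped between CMi-EV and CMm-EV and do not separate them. Taken singly, miR-1-3p, miR-133b and miR-208a-3p overlapped between these groups. miR-133a-3p, miR-208b-3p and miR-499a-5p were higher in each CMm-EV library than in any CMi-EV library. The part of either list in the results on the cluster was not tested.

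Lists for other cell types were measured in the same libraries. Of the blood and serum list, 4 of 5 were in the table, and their sum was 6120.1 to 8501 CPM in hiPSC-EV, 949 to 1272 in CPC-EV, 587 to 2229 in CMi-EV and 660.1 to 773 in CMm-EV, nearly all of it miR-486-5p, which is also known as a muscle miRNA, so that the sum does not measure blood alone. The others, miR-451a, miR-144-3p and miR-150-5p, had no count in any CMi-EV library, and the highest value among them was 49.3 CPM, of miR-451a in CPC-EV 1. The 4 endoderm and liver miRNA summed to between 1501 and 9814 CPM, highest in CPC-EV, where miR-375-3p or miR-192-5p led. The endothelial marker miR-126-3p lay between 0 and 61.8 CPM. The part of these lists in the results on the cluster was not tested.

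Summed over its members, the cluster was a large share of the miRNA in EV of undifferentiated cells and a small one in EV of late cardiomyocytes. Nearly all of this sum was miR-92a-3p, which MIR92A2 on the X chromosome also encodes. The 9 members took 13.2%, 12.2% and 9.96% of the miRNA counts in hiPSC-EV and 12.8%, 10.4% and 12.2% in CPC-EV. The shares were 4.37%, 6.04% and 4.18% in CMi-EV, and 1.39%, 1.03% and 0.775% in CMm-EV. The hiPSC-EV and CPC-EV shares overlapped, while each CMi-EV library lay below both groups and each CMm-EV library below those. Wilson 95% confidence intervals were narrow next to these gaps, from 13.2% to 13.3% in hiPSC-EV 1 and from 0.767% to 0.783% in CMm-EV 3, and they cover counting error only. In these bulk samples, fewer cells of a type and less RNA per cell cannot be told apart, nor can fewer vesicles and less miRNA per vesicle.

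After normalization, the summed level of the cluster was 124735, 140156 and 116315 CPM in hiPSC-EV, 99096 CPM, 96522 and 77256 in CPC-EV, 45276, 50199.8 and 33309.6 in CMi-EV, and 13187, 15625 and 13690.2 in CMm-EV. No group overlapped another on this scale. The means were 127068 ± 12091 CPM (SD, n = 3), 90958 ± 11936, 42928 ± 8686 and 14167 ± 1287 in the order of differentiation. The mean log2 sum of CMm-EV minus that of hiPSC-EV was -3.16. The 4 groups differed (exact permutation test of the between-group F statistic over 15400 divisions of the 12 libraries, p = 6.49e-05, the smallest the design can give, adjusted p = 0.000487 over 15 measures of the cluster). With other scaling the difference ran from -2.59 with median-of-ratios factors to -3.50 with library size only, adjusted p 0.00146 and 0.00292. Over its alternatives in all, the adjusted p ranged from 0.000487 to 0.00565. The order of CPC-EV below hiPSC-EV rests on TMM over all 12 libraries. The unscaled shares overlapped, and so did miR-92a-3p, the bulk of the sum, when scaled within the 6 libraries of that pair.

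**Figure D1:**
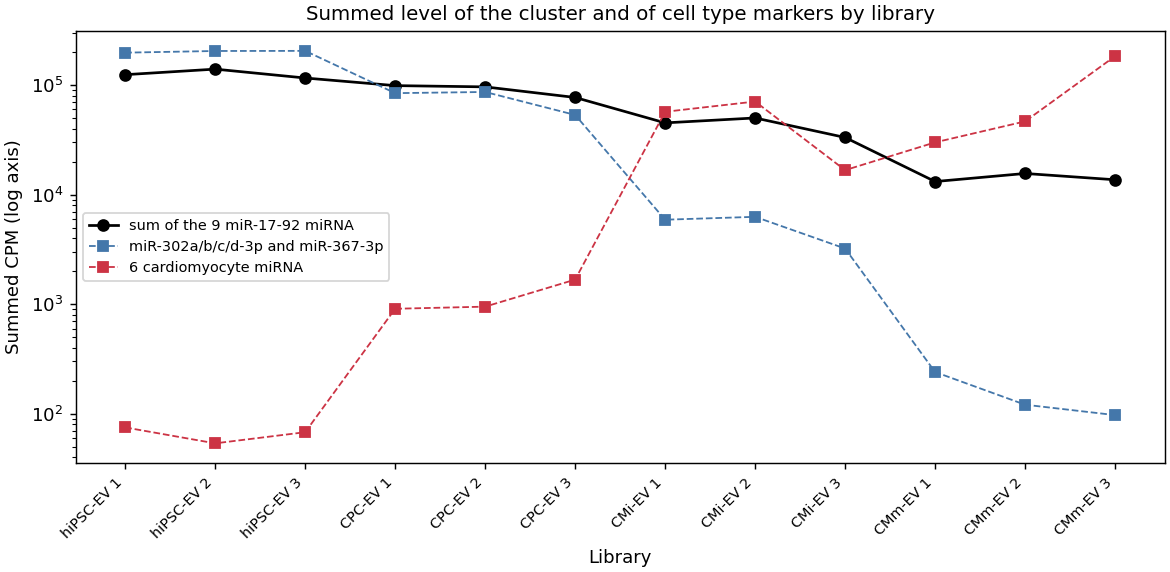
Summed CPM (log axis) of the 9 miR-17-92 miRNA, of the 5 pluripotent markers and of the 6 cardiomyocyte markers in each of the 12 libraries, with lines joining the libraries of a list for reading only. The cluster sum lies between 116315 and 140156 CPM in hiPSC-EV and between 13187 and 15625 CPM in CMm-EV, a narrower range than that of either marker list.

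Nearly all of the cluster's counts were miR-92a-3p. It made up 97.3%, 96.8% and 94.2% of the member counts in hiPSC-EV, between 98.1% and 98.3% in CPC-EV, between 98.4% and 98.9% in CMi-EV, and between 98.7% and 99.0% in CMm-EV. The hiPSC-EV libraries were all below the other groups. The mean share rose from 96.1% ± 1.67 (SD, n = 3) in hiPSC-EV to 98.9% ± 0.167 in CMm-EV. The difference was 2.80 percentage points, and 1.85 without hiPSC-EV 3, the library with the lowest share. The test was over all 4 groups and not of this pair (exact permutation test, adjusted p = 0.00195). Without CPC-EV 1, CPC-EV 2, CMi-EV 2 or CMm-EV 2 the adjusted p was 0.0536, 0.0561, 0.0501 or 0.0584, past the threshold of 0.05.

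The miR-17 seed, the sum of miR-17-5p and miR-20a-5p, made up 2.44%, 2.79% and 5.28% of the member counts in hiPSC-EV and 1.48%, 1.59% and 1.34% in CPC-EV. It made up 1.15%, 0.928% and 0.521% in CMi-EV, and 1.30%, 0.695% and 0.633% in CMm-EV. The hiPSC-EV libraries were above all others, CPC-EV lay above both cardiomyocyte groups, and those overlapped. The mean share fell from 3.50% ± 1.55 (SD, n = 3) in hiPSC-EV to 0.877% ± 0.370 in CMm-EV. The test was again over all 4 groups (exact permutation test, adjusted p = 0.00565, and 0.0519 without CPC-EV 2). The difference of -2.63 percentage points between CMm-EV and hiPSC-EV was -1.74 without hiPSC-EV 3. The member shares add up to the whole, so this fall and the rise of miR-92a-3p are largely the same change, not separate results. The share of miR-18a-5p fell from a mean of 0.135% ± 0.0420 in hiPSC-EV to 0.0775% ± 0.0196 in CPC-EV and to no count in either cardiomyocyte group (exact permutation test over the 4 groups, adjusted p = 0.00487). Its hiPSC-EV and CPC-EV shares overlapped, with 0.0934% in hiPSC-EV 1 and 0.0999% in CPC-EV 3. The share of the miR-19 seed, miR-19a-3p with miR-19b-3p, averaged 0.171%, 0.126%, 0.282% and 0.194% in the order of the groups and passed no test (exact permutation test, adjusted p = 0.456). The sign of its difference between CMm-EV and hiPSC-EV rested on single libraries, with -0.00748 points without hiPSC-EV 1, -0.00190 without hiPSC-EV 2 and -0.0609 without CMm-EV 3, against 0.0228 with all libraries.

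**Figure D2:**
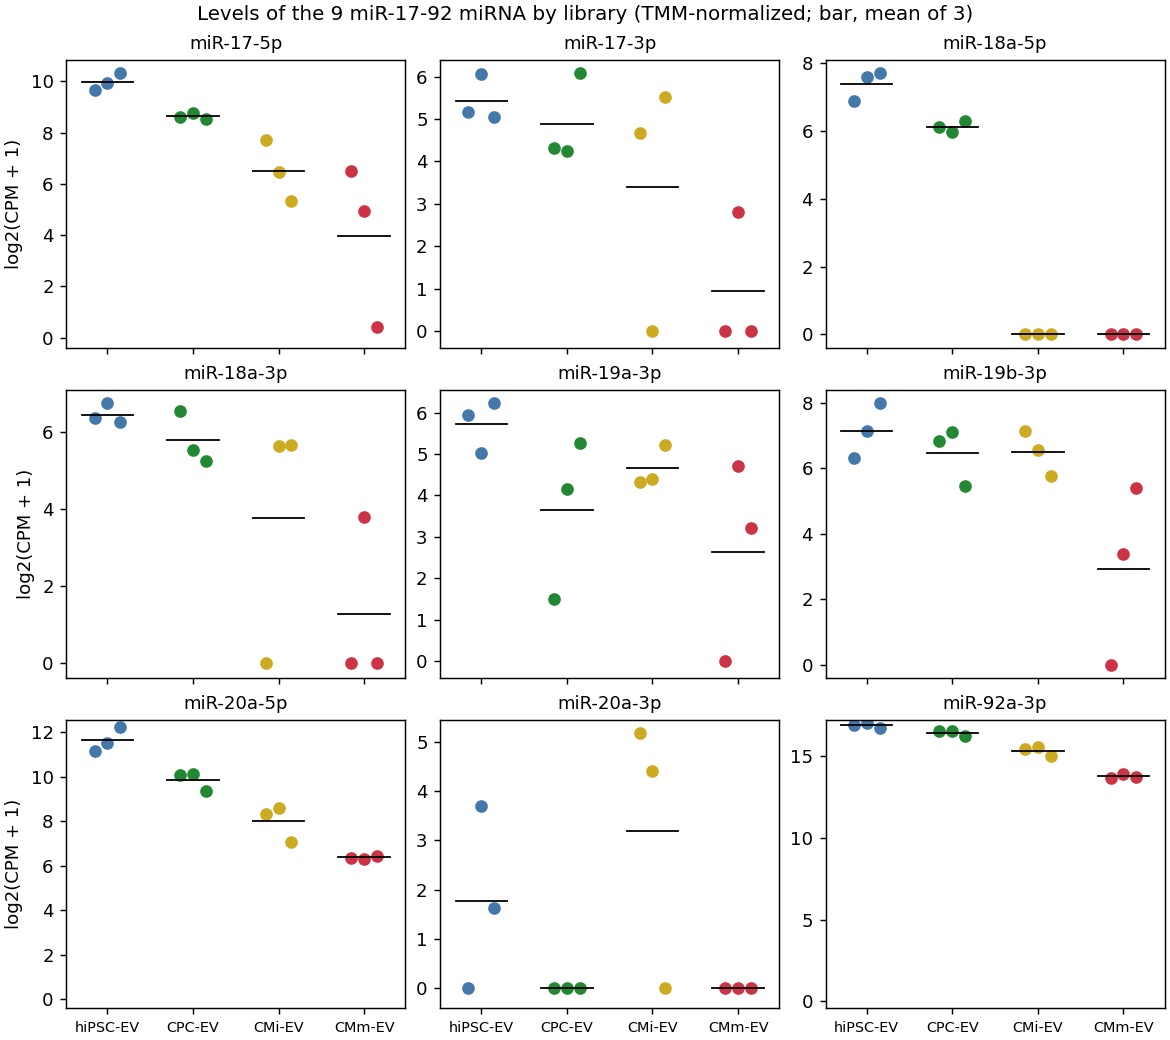
Level of each of the 9 members as log2(CPM + 1), TMM-normalized, with 1 point per library, 3 libraries per EV group, and a bar at the mean. miR-92a-3p stands at 13015 CPM or more in each library, miR-20a-5p steps down at each stage without overlap, and miR-18a-5p is at 0 in the 6 libraries of CMi-EV and CMm-EV.

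Successive stages, and CMm-EV against hiPSC-EV as the ends of the course, were compared with the quasi-likelihood test of edgeR on the 6 libraries of each pair. Differentially expressed (DE) means a false discovery rate (FDR, Benjamini-Hochberg over all tested miRNA) not above 0.05 with a log2 fold change of 1 or more, up or down. Tested were miRNA with at least 5 CPM in each library of at least 1 group of the pair. The comparisons share libraries and are not independent of each other. Their fold changes rest on TMM scaling within 6 libraries. The printed CPM use all 12, so that a log2 ratio of printed means differs from the fitted scale by -0.36 for CPC-EV against hiPSC-EV, -0.27 for CMi-EV against CPC-EV, 0.04 for CMm-EV against CMi-EV and -0.05 for CMm-EV against hiPSC-EV.

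From hiPSC-EV to CPC-EV, at the entry into the cardiac lineage, 2 of 8 tested members were DE, miR-17-5p and miR-20a-5p, both lower. Of all 338 tested miRNA, 27.5% were DE, 16.0% lower and 11.5% higher. The median log2 fold change was -0.66 over the tested members and -0.27 over all tested miRNA. From CPC-EV to CMi-EV, 2 of 8 tested members were DE and lower, miR-18a-5p and miR-20a-5p, where 28.4% of all 292 miRNA were DE, 14.0% lower and 14.4% higher. The medians were -0.67 for members, whether miR-18a-5p is taken at its fitted value or at its bound, and -0.05 for all.

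From CMi-EV to CMm-EV, across maturation, 1 of 5 tested members was DE and lower, miR-92a-3p. There, 16.6% of all 247 miRNA were DE, 10.1% lower and 6.48% higher, with medians of -1.63 for members and -0.30 for all. Between the ends of the course, CMm-EV against hiPSC-EV, 4 of 8 tested members were DE and lower, against 53.6% of all 336 miRNA, 37.5% lower and 16.1% higher. The medians there were -4.25 for members, with or without the bound, and -1.53 for all. No tested member was DE and higher in any of the 4 comparisons. Between CMm-EV and hiPSC-EV, however, all tested members but miR-20a-5p and miR-92a-3p passed the filter only through hiPSC-EV, which favours lower calls. The filter favoured lower calls at other steps too. miR-17-5p, miR-19a-3p and miR-19b-3p were tested between CMm-EV and CMi-EV only through CMi-EV. miR-17-3p, miR-18a-5p and miR-18a-3p were tested between CMi-EV and CPC-EV only through CPC-EV. miR-19a-3p entered only through hiPSC-EV between CPC-EV and hiPSC-EV, but only through CMi-EV between CMi-EV and CPC-EV. Whether members differ in these counts from other miRNA of like level was not tested. miR-20a-3p failed the filter in each of the 4, and miR-17-3p, miR-18a-5p and miR-18a-3p were not tested between CMm-EV and CMi-EV.

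Scaling moved these comparisons as a whole. With median-of-ratios factors, the median over all tested miRNA shifted in log2 by 0.12, 0.00, 0.11 and 0.30 in the order given above. With library size only it shifted by 0.15, -0.46, -0.58 and -0.36. Library size only also moved the lower share among DE miRNA, from 58.1% to 51.7% between CPC-EV and hiPSC-EV, from 49.4% to 64.4% between CMi-EV and CPC-EV, from 61.0% to 80.8% between CMm-EV and CMi-EV and from 70.0% to 74.4% between CMm-EV and hiPSC-EV.

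**Figure D3:**
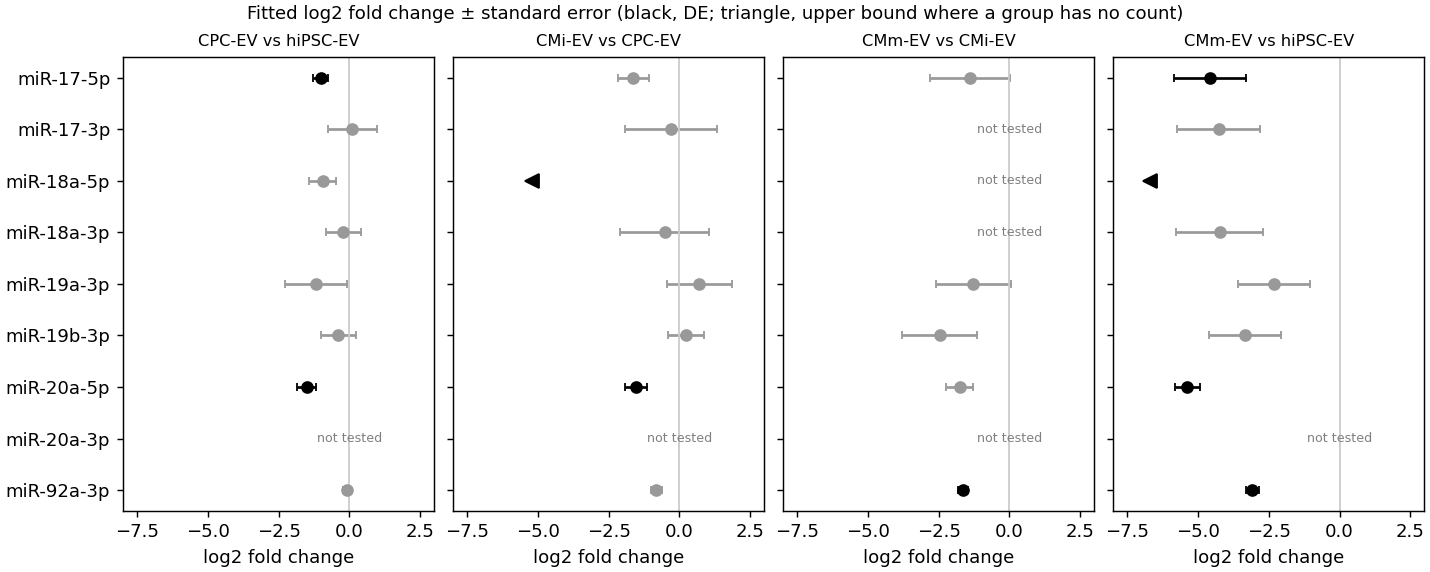
Fitted log2 fold change of each member in the 4 comparisons, with bars of 1 standard error, black for DE and grey for tested but not DE. Triangles mark the bound for miR-18a-5p, which had no count in the later group, and most values lie left of 0, with miR-20a-5p at -5.37 and miR-92a-3p at -3.07 in CMm-EV against hiPSC-EV.

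miR-20a-5p, a guide with the miR-17 seed that is known to target E2F1 and CDKN1A, had 2239, 2939.8 and 4854 CPM in hiPSC-EV, 1074, 1097 and 660.0 in CPC-EV, 314, 378 and 134 in CMi-EV, and 81.1, 78.5 and 86.4 in CMm-EV. Each group lay wholly below the one before it. From hiPSC-EV to CPC-EV it fell, with a log2 fold change of -1.50 (SE 0.34, edgeR FDR 0.0137, n = 3 per group). This call was lost without CPC-EV 3 (FDR 0.0726) and with the replicate number as a block (FDR 0.0990), in a range from 0.000146 over 13 alternatives, and without hiPSC-EV 3 the fold change was -1.05. It fell again from CPC-EV to CMi-EV, at -1.53 (SE 0.38, edgeR FDR 0.0234). That call was lost without CPC-EV 1, CPC-EV 2 or CMi-EV 1, at an FDR of 0.0751, 0.0764 and 0.0675, with a range of 0.000708 to 0.0764 over alternatives.

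Between CMi-EV and CMm-EV, miR-20a-5p missed the FDR by a narrow margin at a log2 fold change of -1.75 (SE 0.48, edgeR FDR 0.0504). Without CMi-EV 3 it was DE (FDR 0.0314), as it was with library size only (0.0248), with DESeq2 (0.00470) and with dispersions from all 12 libraries (0.0231), in a range up to 0.212 over alternatives. Across the whole course, from hiPSC-EV to CMm-EV, it fell, at -5.37 (SE 0.45, edgeR FDR 0.000283) and DE in 13 of 13 alternatives.

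miR-17-5p, the other member with this seed, had 806, 969 and 1284 CPM in hiPSC-EV, 388, 434 and 372 in CPC-EV, 206, 87.7 and 39.7 in CMi-EV, and 90.7, 30.1 and 0.348 in CMm-EV. It separated hiPSC-EV, CPC-EV and CMi-EV without overlap, while CMi-EV and CMm-EV overlapped. In CMm-EV its 3 libraries spread widely, with 94, 125 and 1 count. The fall into CPC-EV lay at the threshold, with a log2 fold change of -1.01 (SE 0.27, edgeR FDR 0.0282). It was DE in only 3 of 13 alternatives, with an FDR from 0.000206 to 0.535 and a fold change from -1.19 to -0.74. Without hiPSC-EV 3 the fold change was -0.74, without CPC-EV 2 it was -0.95, and without CPC-EV 1 or CPC-EV 3 the FDR was 0.129 or 0.0843.

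miR-17-5p was not DE from CPC-EV to CMi-EV, with a log2 fold change of -1.63 (SE 0.54, edgeR FDR 0.0668). It was DE there without CMi-EV 1 (FDR 0.0139), with median-of-ratios factors (0.0457), library size only (0.0215), no filter (0.0210) and DESeq2 (0.00968), in a range up to 0.324. Between CMi-EV and CMm-EV it had -1.40 (SE 1.42, edgeR FDR 0.535), with -0.55 without CMi-EV 1 and -2.83 without CMm-EV 1. Over the whole course miR-17-5p was lower in CMm-EV, at -4.58 (SE 1.27, edgeR FDR 0.0345). This call was lost without hiPSC-EV 1, hiPSC-EV 2 or hiPSC-EV 3, at an FDR of 0.0516, 0.0751 and 0.0972, the highest of its alternatives, against a lowest of 1.85e-13 with no filter. Without CMm-EV 1 the fold change was -5.82.

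miR-18a-5p, the guide known to target CTGF, had 116, 189.9 and 206 CPM in hiPSC-EV, 68.6, 61.2 and 77.2 in CPC-EV, and no count in any CMi-EV or CMm-EV library. It was thus present in 6 of 6 early libraries and in 0 of 6 late ones, so that it entered the tests through the early group and could only be called lower. A count of 0 allows up to 3 counts, which is between 1.44 and 1.75 CPM in the CMi-EV libraries and between 0.722 and 2.89 CPM in the CMm-EV libraries. Against the mean of such floors of 3 counts per library, scaled within the 6 libraries of the test, from CPC-EV to CMi-EV miR-18a-5p was at least 36.7-fold lower (edgeR FDR 0.00548, and 0.0571 with the replicate number as a block, the sole alternative past the threshold) and at least 105-fold lower in CMm-EV than in hiPSC-EV (edgeR FDR 0.00102). Its change from hiPSC-EV to CPC-EV did not pass, at a log2 fold change of -0.94 (SE 0.48, edgeR FDR 0.212), though the groups did not overlap.

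The miR-19 members were scarce and variable. miR-19a-3p had 60.3, 31.6 and 74.1 CPM in hiPSC-EV, 1.84, 16.7 and 37.8 in CPC-EV, 19.2, 20.2 and 36.2 in CMi-EV, and 0, 25.04 and 8.36 in CMm-EV. miR-19b-3p had 77.7, 139 and 253 CPM in hiPSC-EV, 113, 136 and 43.1 in CPC-EV, 139, 94.1 and 53.1 in CMi-EV, and 0, 9.39 and 41.1 in CMm-EV. Neighbouring groups overlapped, apart from CMi-EV and CMm-EV for miR-19b-3p, and neither member was DE in any comparison. From CPC-EV to CMi-EV their log2 fold changes were 0.70 (SE 1.15) and 0.22 (SE 0.64), but -0.20 for miR-19b-3p with library size only. miR-19a-3p passed the filter there only through CMi-EV, which favours a higher value. Its fold change was 0.18 without CPC-EV 1 and 1.77 without CPC-EV 3. From hiPSC-EV to CMm-EV the log2 fold changes of miR-19a-3p and miR-19b-3p were -2.33 (SE 1.27, edgeR FDR 0.174) and -3.34 (SE 1.28, edgeR FDR 0.0765). With a library left out they ran from -3.33 to -1.49 and from -4.66 to -2.38. miR-19b-3p was DE there without CMm-EV 3 (FDR 0.0354), with library size only (0.0403), with no filter (0.00313) and with DESeq2 (0.0442), and its FDR reached 0.254 over alternatives.

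miR-92a-3p had 121320.5, 135703 and 109534 CPM in hiPSC-EV, 97339, 94714 and 75962 in CPC-EV, 44537, 49551 and 32953 in CMi-EV, and 13015, 15463 and 13554 in CMm-EV. It was the most abundant miRNA in CPC-EV 3, ranked 2 or 3 in the other hiPSC-EV and CPC-EV libraries, between 6 and 7 in CMi-EV and between 13 and 14 in CMm-EV. Known for restraining ITGA5 in endothelial cells, it alone among the members kept a high level throughout. Between hiPSC-EV and CPC-EV it had a log2 fold change of -0.09 (SE 0.14, edgeR FDR 0.677). Its sign there depended on scaling, with 0.01 under median-of-ratios factors and 0.03 under library size only, and the groups overlapped when scaled within the 6 libraries.

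From CPC-EV to CMi-EV, miR-92a-3p passed the FDR but not the fold threshold, at -0.82 (SE 0.20, edgeR FDR 0.0210). With library size only it was DE, at -1.27 (FDR 0.00739, in a range up to 0.0829 over alternatives). From CMi-EV to CMm-EV it fell, at -1.63 (SE 0.17, edgeR FDR 0.00103), and over the whole course at -3.07 (SE 0.22, edgeR FDR 9.01e-05), with both calls kept in 13 of 13 alternatives. The miR-17 seed guides were DE at earlier steps, but timing was compared between members only through their shares of the member counts.

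The other strands of 3 hairpins, miR-17-3p, miR-18a-3p and miR-20a-3p, were rare. miR-17-3p lay between 32.1 and 65.6 CPM in hiPSC-EV, between 18.1 and 66.9 in CPC-EV, and was found in 2 of 3 CMi-EV and 1 of 3 CMm-EV libraries. miR-18a-3p lay between 74.7 and 106.4 CPM in hiPSC-EV, between 36.9 and 92.6 in CPC-EV, and was also found in 2 and 1 of the later libraries. miR-20a-3p had counts in only 4 libraries, 2 of hiPSC-EV and 2 of CMi-EV, at up to 35.4 CPM. From hiPSC-EV to CMm-EV, miR-17-3p had a log2 fold change of -4.27 (SE 1.47, edgeR FDR 0.0578) and miR-18a-3p of -4.24 (SE 1.54, edgeR FDR 0.0708), and neither was DE. Without CMm-EV 2, the sole CMm-EV library with their counts, both were DE (FDR 0.00508 and 0.00259), as with library size only (0.0425 and 0.04998) and with DESeq2 (0.0292 and 0.0423), and miR-18a-3p also with no filter (0.00382). Their FDR over alternatives reached 0.157 and 0.165.

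The balance of the strands was measured as the log2 ratio of the 5p to the 3p count, with 0.5 added to each. For miR-17 it averaged 4.57 ± 0.72 (SD, n = 3) in hiPSC-EV and 3.82 ± 3.26 in CMm-EV (exact permutation test over 4 groups, adjusted p = 0.980). miR-17-3p had no count in CMi-EV 2, CMm-EV 1 or CMm-EV 3, where the ratio is set by the added count. For miR-20a the means were 10.25 ± 2.04, 12.27 ± 0.66, 5.40 ± 3.03 and 8.57 ± 1.03, but miR-20a-3p had no count in any CPC-EV or CMm-EV library. The ratios there are miR-20a-5p counts over the added count, and the test over the groups (exact permutation test, adjusted p = 0.0357) says nothing on the balance of the strands. The difference between CMm-EV and hiPSC-EV, -1.68, was -0.95 without hiPSC-EV 1, -2.84 without hiPSC-EV 2, -1.09 without CMm-EV 1, and -2.31 or -3.61 with 1 or 5 counts added. The call was lost, at an adjusted p between 0.0565 and 0.118, without hiPSC-EV 1, hiPSC-EV 3, CPC-EV 1, CPC-EV 2, CPC-EV 3, CMi-EV 1, CMi-EV 2, CMm-EV 1, CMm-EV 2 or CMm-EV 3. For miR-18a the 5p strand had more counts than the 3p strand in each hiPSC-EV library, with a mean of 0.94 ± 0.48, and the mean was 0.35 ± 0.75 in CPC-EV, while in CMi-EV only the 3p strand had counts (98 and 84 in 2 libraries). In CMi-EV 1, CMm-EV 1 and CMm-EV 3 neither strand of miR-18a had a count, so that their ratio of 0 holds no information. The test over the groups (adjusted p = 0.0712, and 0.0427 without CMi-EV 1) rests in part on these values.

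miR-92a-1-5p, the other strand of MIR92A1, is not among the 9 members but shows the hairpin on chromosome 13 alone. It had 183, 76.1 and 34.8 CPM in hiPSC-EV, 229.9, 146 and 174 in CPC-EV, 54.1, 0 and 71.8 in CMi-EV, and 0, 26.01 and 10.4 in CMm-EV. CPC-EV lay above CMi-EV and CMm-EV, and hiPSC-EV overlapped CPC-EV. It was not DE in any of the 3 comparisons in which it was tested, with an edgeR FDR of 0.215 at a log2 fold change of 1.26 (SE 0.65) from hiPSC-EV to CPC-EV and 0.105 at -2.87 (SE 1.26) from hiPSC-EV to CMm-EV.

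The paralogous clusters were measured to see where miR-17-92 differs from them. miR-363-3p, the own miRNA of the miR-106a-363 cluster with the seed of miR-92a-3p, fell from a mean of 59468 CPM in hiPSC-EV to 1047 CPM in CMm-EV, at a log2 fold change of -5.81 (SE 0.27, edgeR FDR 2.87e-05). The log2 ratio of miR-92a-3p to miR-363-3p, which needs no scaling between libraries, was 1.23, 1.15 and 0.75 in hiPSC-EV, 2.49, 2.58 and 2.61 in CPC-EV, 2.85, 3.16 and 2.79 in CMi-EV, and 3.77, 3.81 and 3.64 in CMm-EV. The ratio was higher in each group than in the one before, with no overlap. Its means were 1.04 ± 0.26 (SD, n = 3), 2.56 ± 0.06, 2.93 ± 0.20 and 3.74 ± 0.09, a difference of 2.70 between the ends. The 4 groups differed (exact permutation test, p = 6.49e-05, the smallest the design can give, adjusted p = 0.000487). The call was kept in 15 of 15 alternatives. Since MIR92A2 of the miR-106a-363 cluster also yields miR-92a-3p, the ratio does not separate the clusters by origin.

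**Figure D4:**
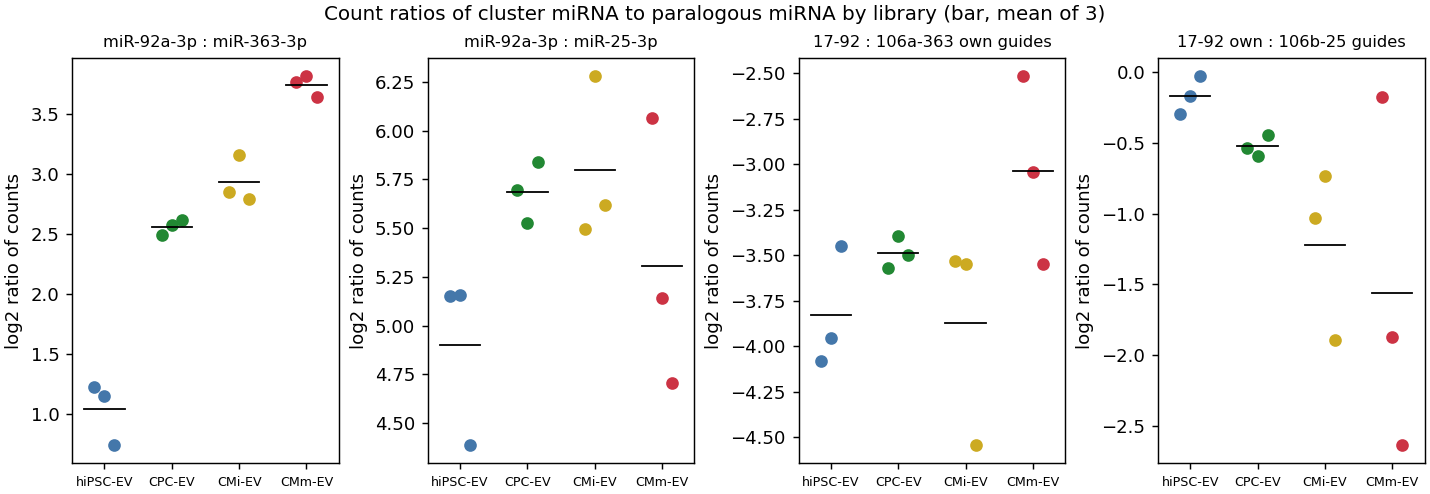
Log2 ratios of counts between miR-17-92 miRNA and paralogous miRNA, with 1 point per library and a bar at the mean of 3 libraries. The ratio of miR-92a-3p to miR-363-3p goes from 0.75 to 1.23 in hiPSC-EV up to 3.64 to 3.81 in CMm-EV without overlap, while some groups overlap in each of the 3 other panels.

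The remaining ratios did not pass. The log2 ratio of miR-92a-3p to miR-25-3p of the miR-106b-25 cluster averaged 4.90 ± 0.44, 5.69 ± 0.16, 5.80 ± 0.42 and 5.30 ± 0.69 (SD, n = 3, exact permutation test, adjusted p = 0.196). The 4 guides encoded by miR-17-92 but by no other cluster, miR-17-5p, miR-18a-5p, miR-19a-3p and miR-20a-5p, had fewer counts together than the 4 of miR-106a-363 in each library, with log2 ratios from -4.54 to -2.52 (exact permutation test, adjusted p = 0.154). Most counts of the latter were miR-363-3p in each library, while miR-92a-3p is not among the former. Against the 3 guides of miR-106b-25 their log2 ratio averaged -0.17 ± 0.13, -0.52 ± 0.08, -1.22 ± 0.60 and -1.56 ± 1.26 from hiPSC-EV to CMm-EV (adjusted p = 0.154, and 0.0406 without CMm-EV 1).

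Between nearest relatives, the log2 ratio of miR-20a-5p to miR-20b-5p averaged 1.79, 2.76, 4.82 and 7.02 in the order of the groups, with overlap between neighbours (exact permutation test, adjusted p = 0.0740, and 0.0427 without CMi-EV 1). miR-20b-5p had 2, 2 and 0 counts in CMm-EV and 2 in CMi-EV 1, where the ratio depends strongly on the added count. The difference between the ends was 5.24, and 3.18 with 5 counts added. The log2 ratio of miR-17-5p to miR-106a-5p averaged -1.18, -0.56, -0.02 and 1.25, but ran from -5.95 to 7.97 among the CMm-EV libraries (exact permutation test, adjusted p = 0.898, and 0.0485 without CMm-EV 3, while without CMm-EV 2 the difference between the ends was -0.93). The highest is set by the added count, since miR-106a-5p had no count in CMm-EV 2. The lowest rests on 1 count of miR-17-5p in CMm-EV 3. miR-18a-5p and miR-18b-5p both had no count in CMi-EV and CMm-EV, which leaves their ratio without information there (adjusted p = 0.101, and 0.0219 without CPC-EV 3). Since reads that fit both were shared out, these 3 ratios carry the uncertainty of that split.

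Among the own guides of miR-106a-363, 2 of 4 tested were DE and lower from hiPSC-EV to CPC-EV, 2 of 3 from CPC-EV to CMi-EV, 1 of 2 from CMi-EV to CMm-EV and 4 of 4 from hiPSC-EV to CMm-EV. Of all tested miRNA, 27.5%, 28.4%, 16.6% and 53.6% were DE in these comparisons, and 16.0%, 14.0%, 10.1% and 37.5% were DE and lower. Of the guides of miR-106b-25, 1 of 3, 0 of 3, 0 of 2 and 3 of 3 were DE and lower in the same order. All of these paralogous guides but miR-363-3p and miR-25-3p passed the filter between CMm-EV and hiPSC-EV only through hiPSC-EV, which favours lower calls. At miR-17-92 the counts were 2 of 8, 2 of 8, 1 of 5 and 4 of 8, with the rarer strands included. miR-92b-3p, which is encoded apart from the clusters, was DE and lower from CPC-EV to CMi-EV and over the whole course, at log2 fold changes of -1.17 (SE 0.22, edgeR FDR 0.00625) and -2.33 (SE 0.25, edgeR FDR 0.000435).

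The weight of the cluster within its seed families was taken from the counts. RefSeq holds 6 miRNA with the miR-92 seed, all in the count table, among them the pluripotent marker miR-367-3p. miR-92a-3p supplied 54.4%, 52.9% and 49.9% of the counts of this seed in hiPSC-EV, 66.9%, 67.7% and 69.0% in CPC-EV, 73.1%, 73.3% and 72.2% in CMi-EV, and 62.5%, 57.4% and 52.4% in CMm-EV. The share was highest in CMi-EV and overlapped between hiPSC-EV and CMm-EV, where miR-92b-3p held 9085 ± 2149 CPM (SD, n = 3) beside 14011 ± 1286 of miR-92a-3p. Of the 8 miRNA with the miR-17 seed, miR-17-5p and miR-20a-5p supplied 50.8% ± 1.70, 55.0% ± 3.47, 58.8% ± 16.6 and 66.1% ± 20.01 on average, in the order of differentiation. The late groups overlapped both early ones. The miR-19 seed is carried by the members alone. These family shares are descriptions and were not tested.

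Across the 12 libraries, the levels of the members as log2(CPM + 1) were correlated with Pearson's r from -0.13 to 0.95 over 36 pairs, with a median of 0.59. The highest was that of miR-20a-5p and miR-92a-3p, and the lowest that of miR-18a-5p and miR-20a-3p. The libraries share their stage and depth, and r is given as a description. The profile of the cluster, taken as the mean of its 9 members on the same scale, ran from 7.59 to 8.30 in hiPSC-EV, from 6.73 to 6.94 in CPC-EV, from 5.51 to 5.86 in CMi-EV and from 2.95 to 4.43 in CMm-EV. Among 350 other miRNA, the most alike were miR-182-5p (r = 0.98, n = 12 libraries), miR-96-5p (0.97), miR-205-5p (0.97), miR-183-5p (0.97) and miR-425-5p (0.97).

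Fragments of transcripts tied to the cluster were looked up among the gencode features of the same libraries, from a list of the host gene, 6 regulators and 11 known targets. Of 18 symbols, TGFBR2 was not in the table, CCN2 was listed under its older symbol CTGF, and the 17 symbols found gave 33 features by biotype. Just 3 passed the filter between CMm-EV and hiPSC-EV, where 50.8% of all 2153 tested features were DE. CCND1, a cyclin of the G1 phase, had 25, 17.5 and 13.67 expected counts on its protein-coding feature in hiPSC-EV and none in CMm-EV (edgeR FDR 0.00871). SMAD4, the shared mediator of TGF-beta signals, had 2, 5.8 and 18.9 expected counts in hiPSC-EV and none in CMm-EV (edgeR FDR 0.0126). Both were DE, but they passed the filter only through hiPSC-EV and so could only be called lower. CDKN1A, an inhibitor of the cell cycle, was not DE at a log2 fold change of -0.57 (SE 1.69, edgeR FDR 0.807), with 15, 7 and 55 against 18.8, 0 and 0 expected counts.

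The gencode counts per library were 307229 to 1908089 in hiPSC-EV and 131183 to 322043 in CMm-EV, so that a lack of counts in CMm-EV says little at this depth. With no filter, 0 of 26 listed features were DE, and without hiPSC-EV 1 the count was 5 of 8. MIR17HG had at most 1 expected count on any feature in the hiPSC-EV libraries, 27 on its lincRNA feature in CPC-EV 3, and 44 and 27 on its retained-intron feature in CPC-EV 2 and CPC-EV 3. It had none in CMi-EV or CMm-EV, and no course of the host transcript could be read from these counts.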

How the data were processed

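Small RNA of 12 EV preparations was analysed in 4 groups of 3. The authors deposited expected counts per miRNA and per gencode feature, made with exceRpt on hg38 with miRBase, and RPM, and their processing notes name edgeR 3.24.0. Here, expected counts were rounded, and the deposited RPM served as 1 alternative scaling. The members and lists were chosen with earlier results of these data known. Tests used edgeR 4.0.16 in R 4.3.3, two-sided, with TMM. Standard errors came from the weighted information and the posterior quasi-dispersion, and a group without counts gives a bound against 3 counts per library. Single measures had an exact permutation test of F, adjusted over 15. Alternatives were median-of-ratios factors, library size only, no filter, filterByExpr, DESeq2 1.42.0, dispersions of 12 libraries, unrounded counts, pseudocounts 1 and 5, a replicate term and each library left out. Named were all members, listed relatives and other strands (miR-19a-5p and miR-19b-1-5p are not in the table), the 5 most similar of the miRNA reaching 5 CPM throughout a group, listed transcripts passing the filter, and the listed markers of pluripotent cells, cardiomyocytes, blood, endoderm and endothelium. The host gene was named beyond this rule. Between replicates, the counts varied far beyond counting error (chi-square/df from 51.6 to 712 in 12 pairs). Permutation tests and figures used Python 3.11.15 with numpy 2.4.6, pandas 2.3.3, scipy 1.17.1 and matplotlib 3.10.9.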

Additional observations from a re-analysis of the deposited data

How the results depend on the processing

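The summed level of the cluster and the ratio of miR-92a-3p to miR-363-3p kept direction and significance in each alternative run. The calls of miR-92a-3p between CMm-EV and CMi-EV, and of miR-92a-3p and miR-20a-5p between CMm-EV and hiPSC-EV, did so too. The call of miR-18a-5p between CMm-EV and hiPSC-EV was also kept, but without counts in CMm-EV its direction was fixed in advance. Between CPC-EV and hiPSC-EV, 1 member was DE in place of 2 with median-of-ratios factors, library size only, no filter, DESeq2 or dispersions from all 12 libraries, and 0 to 2 with a library left out. Between CMi-EV and CPC-EV, 4 were DE in place of 2 with library size only, 3 with median-of-ratios factors, no filter or DESeq2, where miR-17-5p was gained, and 1 to 3 with a library left out. Between CMm-EV and CMi-EV, 2 were DE in place of 1 with library size only, DESeq2 or dispersions from all 12 libraries, and 1 to 3 with a library left out. In both of these comparisons the count of 3 without CMi-EV 3 includes miR-20a-3p, higher in CMi-EV. CMi-EV 3 is the CMi-EV library without its counts, so that leaving it out alone let this miRNA pass the filter, and with no filter its edgeR FDR was 0.334 and 0.363. Between CMm-EV and hiPSC-EV, 7 were DE in place of 4 with library size only or DESeq2, 6 with no filter, and 3 to 6 with a library left out. Of the listed transcripts, 0 were DE with no filter and 2 to 5 with a library left out. The cause of these shifts was not tested.

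Signs turned only for fold changes or differences that were not DE or did not pass. From hiPSC-EV to CPC-EV, the log2 fold change of miR-92a-3p was 0.0108 with median-of-ratios factors, 0.0108 with DESeq2 and 0.0322 with library size only, and from -0.13 to 0.0057 with a library left out. That of miR-17-3p was -0.0496 with no filter and -0.12 with dispersions from all 12 libraries, and from -0.89 to 0.43 with a library left out. With a library left out, miR-18a-3p had -0.69 to 0.0305 and miR-19b-3p -0.74 to 0.24. From CPC-EV to CMi-EV, miR-19b-3p had -0.20 with library size only and -0.17 to 0.57 with a library left out, miR-17-3p -1.37 to 0.65 and miR-18a-3p -1.04 to 0.0567.

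For CMm-EV minus hiPSC-EV with a library left out, the share of the member counts differed by -3.16 to -1.74 points for the miR-17 seed, -0.0609 to 0.120 for the miR-19 seed and 1.85 to 3.39 for miR-92a-3p. The strand ratio differed by -2.63 to 0.36 for miR-17, -4.31 to -0.94 for miR-18a and -2.84 to -0.95 for miR-20a. With 1 or 5 counts added in place of 0.5, it was -1.27 or -2.24 for miR-17, -2.86 or -2.10 for miR-18a and -2.31 or -3.61 for miR-20a. The ratio of own guides to those of miR-106b-25 differed by -2.09 to -0.86, miR-17-5p to miR-106a-5p by -0.93 to 6.03, miR-20a-5p to miR-20b-5p by 4.27 to 6.21 (4.73 or 3.18 with 1 or 5 counts added), and miR-18a-5p to miR-18b-5p by -1.96 to -1.17, which is only the hiPSC-EV mean with its sign turned, since both had no count in CMm-EV. Where the report gives an adjusted p without a library, the test used fewer samples.

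Replicate numbers recur in each group, and the labels do not say whether equal numbers share a culture run. The correlations below gave no sign of pairing, but low values cannot exclude shared runs. After group means were removed, 1 of 18 same-numbered pairs of libraries correlated above 0.1, with r from -0.126 to 0.102, and 4 of 12 libraries were closest to one with their own number. With the replicate number as a block, 0 members were DE between CPC-EV and hiPSC-EV, where miR-17-5p and miR-20a-5p were lost (edgeR FDR 0.105 and 0.0990), 1 between CMi-EV and CPC-EV, where miR-18a-5p was lost (edgeR FDR 0.0571), 1 between CMm-EV and CMi-EV and 5 between CMm-EV and hiPSC-EV, and 2 listed transcripts. miR-19b-3p was gained between CMm-EV and hiPSC-EV (edgeR FDR 0.0459). The difference in the cluster sum between CMm-EV and hiPSC-EV was -3.16 (permutation test over the 4 groups within replicate numbers, adjusted p = 0.00565). miR-17-3p had a log2 fold change of -0.23 from hiPSC-EV to CPC-EV.

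A library's floor of 3 counts lay between 0.626 CPM in hiPSC-EV 3 and 4.02 CPM in hiPSC-EV 1, and in CMm-EV 1 just 3 of the 9 members had counts.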
